A study of Sus scrofa with 13 samples.

Results

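The nuclear genes for subunits of the mitochondrial respiratory chain were examined for their 5-hydroxymethylcytosine (5hmC) signal in mesenchymal stem cells kept at low or ordinary oxygen. Members were the gene symbols of the count tables that follow the naming of complex I (NDUFA, NDUFB, NDUFC, NDUFS and NDUFV genes), complex II (SDH), complex III (UQCR), complex IV (COX) and complex V (ATP5). In all, 68 of 27339 gene rows were members, with 37 in complex I, 4 in complex II, 2 in complex III, 8 in complex IV and 17 in complex V. The rule used names and no measured value.

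The cells were grown from the abdominal fat of female domestic pigs fed a diet with 2% cholesterol, 3 weeks after a coil was placed in the renal artery to narrow it. All 12 libraries share that diet and that stenosis, so no library comes from a healthy pig. The 6 hypoxia libraries are from cells held at 1% oxygen for 48 hours, the 6 normoxia libraries from cells held at 20% oxygen, and the title numbers 110, 16, 21, 33, 49 and 4 occur once per group. DNA fragments bound by an anti-5hmC antibody were sequenced and counted per gene.

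The respiratory chain passes electrons from NADH (complex I) and succinate (complex II) through ubiquinone and complex III to complex IV, which reduces oxygen to water, and complex V uses the proton gradient so built to make ATP. Most subunits are encoded in the nucleus, a few in mitochondrial DNA. The mark studied, 5hmC, is made from 5-methylcytosine by the TET enzymes, which themselves use oxygen and 2-oxoglutarate and are inhibited by succinate, and it is often found along the bodies of active genes. It is a mark on DNA and not a measure of RNA.

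The libraries held 263578 to 714002 reads counted to genes, which was 1.69 to 2.89% of the reads in their tables, with the fewest in the normoxia library of number 21. Another 88.0 to 93.0% lay outside the counted features. Which part of a gene was counted is not given, so these shares need not cover whole gene bodies. Reads relative to the library's gene reads (CPM) were scaled by edgeR's TMM method, and on that scale 1 read was worth 1.38 to 4.10 CPM. All 6 mesenchymal stromal marker genes (THY1, NT5E, ENG, CD44, PDGFRB and PDGFRA) had reads in every library, with a summed level of 522 to 781 CPM in hypoxia and 476 to 1050 CPM in normoxia. Genes of other cell types carried 5hmC reads as well. The summed level was 161 to 296 CPM in hypoxia and 188 to 337 CPM in normoxia at 3 immune genes, 271 to 427 and 223 to 322 CPM at 3 endothelial genes, 63.5 to 116 and 57.9 to 111 CPM at 2 epithelial genes, 159 to 345 and 81.2 to 215 CPM at 2 adipocyte genes, and 57.5 to 146 and 69.3 to 219 CPM at 2 smooth muscle genes. CD14 had 0 reads in 5 libraries and PLIN1 in 1. The summed ranges of hypoxia and normoxia overlapped for each list. Single markers differed more. ACTA2, a smooth muscle actin gene, was lower in hypoxia in 6 of 6 numbers (log2 fold change -0.86 ± 0.543 (SE), and -0.76 ± 0.222 with the title number as a block, edgeR adjusted p of 1 and 0.368). ADIPOQ, the adiponectin gene of adipocytes, was higher in 5 of 6 (0.61 ± 0.260, and 0.62 ± 0.203 with the block, edgeR adjusted p of 1 and 0.512). The endothelial genes CDH5, PECAM1 and VWF had log2 fold changes of 0.40, 0.27 and 0.08. CDH1, an epithelial gene, was higher in hypoxia in 6 of 6 numbers (0.27 ± 0.236, and 0.26 ± 0.199 with the block), and EPCAM in 3. Without the block, 1 of the 6 stromal genes was higher and 5 were lower (median -0.197). The 2 smooth muscle genes were lower (median -0.511), and of the 2 immune genes tested 1 was higher and 1 lower. The part of these markers in the results below was not tested. In bulk DNA, fewer cells of a type and less 5hmC per cell cannot be told apart.

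The respiratory chain genes had few counted reads in these libraries. Members are 0.249% of the gene rows and took 0.0630 to 0.0861% of the gene reads of a library. Their median total over the 12 libraries was 39 reads, against 97 over all gene rows. In 35 of the 68 members at least 1 library had 0 reads, and only 14 members reached 100 reads in all. Reads are not scaled to gene length, so a level is compared between groups and not between genes.

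The count filter (at least 10 reads at the median depth, which is 21.0 CPM, in 6 or more libraries) left 9 members, or 13.2%, for the test, against 43.4% of all gene rows. Among them were NDUFB10 and NDUFA9 of complex I, SDHB and SDHC of complex II, and ATP5A1, ATP5G2, ATP5L and ATP5SL of complex V. No member of complex III or IV passed. Other families of small housekeeping proteins had low shares too, with 14 of 75 cytosolic ribosomal protein genes (18.7%) and 18 of 77 mitochondrial ribosomal protein genes (23.4%), whereas 13 of 24 genes of the citrate cycle and pyruvate dehydrogenase (54.2%) passed. The 59 members that did not pass had up to 121 reads in all, and those that passed had 106 or more. A member can pass through the group in which it is higher, so the 9 are no sample of the 68.

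**Figure D1:**
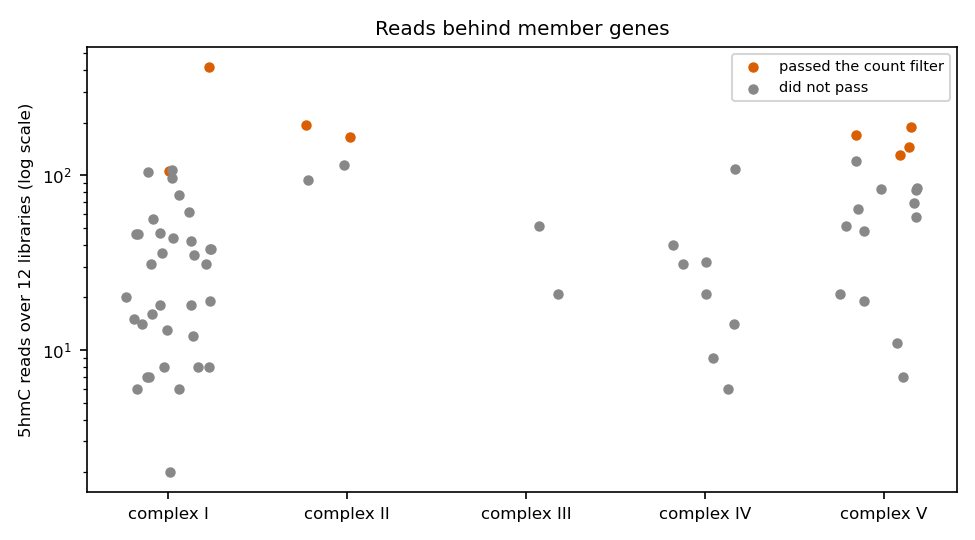
Each point is 1 of the member genes reported, placed by complex, with its total 5hmC reads over the 12 libraries on a log scale; sideways spread within a complex carries no meaning. The plotted members that passed the count filter (orange) lie between 106 and 415 reads, and the 59 that did not (grey) between 2 and 121.

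The main comparison asked whether hypoxia changed the 5hmC signal at these genes. None of the 9 tested members passed edgeR's quasi-likelihood test, where 0 of 11868 genes (0%) passed in all, and the adjusted p was 1 for each. DESeq2's Wald test also called 0 members. With the title number as a block, again 0 of the 9 passed, beside 4 of 11868 genes (0.0337%), and their lowest adjusted p was 0.691. At an unadjusted p under 0.05 there were 0 of 9 members without the block, beside 2.69% of all tested genes. With the block there was 1 of 9, ATP5L, beside 7.05% of tested genes in either direction and 2.74% higher in hypoxia, which is the direction of ATP5L. Log2 fold changes of hypoxia against normoxia ran from -0.51 to 0.69, with 2 members higher and 7 lower and a median of -0.258. Over all tested genes 5265 were higher and 6603 lower, with a median of -0.0377.

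**Figure D2:**
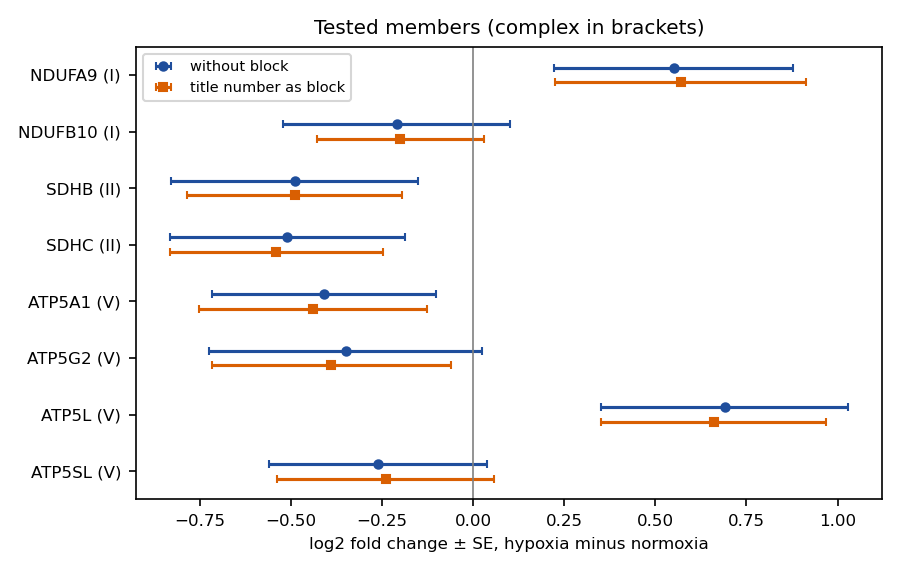
Log2 fold change of 5hmC reads, hypoxia minus normoxia, with its SE as bars, for 8 members that passed the count filter, without (circles) and with (squares) the title number as a block. Without the block, SDHB, SDHC and ATP5A1 lie below 0 and NDUFA9 and ATP5L above 0 by more than 1 SE, and no member passed the test after adjustment.

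A description of all 68 members came from the same fit without the count filter. There the log2 fold change was above 0 for 22 and below 0 for 46 (32.4% positive), with a median of -0.125, beside 45.0% positive and a median of -0.0364 over the 25337 rows with any read. By complex, 15 of 37 members were positive in complex I, 0 of 4 in complex II, 0 of 2 in complex III, 0 of 8 in complex IV and 7 of 17 in complex V. Some of these signs rest on little. COX6B was at -0.02 ± 0.356 (SE). COX7A1 and COX6C were below 0 in the fit, yet their mean CPM was higher in hypoxia (5.13 against 4.82, and 3.46 against 3.31). At an unadjusted p under 0.05 there were 2 of 68 members (2.94%), NDUFB8 and NDUFS3, both higher in hypoxia, which is near the 2.76% of all rows, and neither passed after edgeR's adjustment (adjusted p = 1). In no member were the hypoxia and normoxia values without overlap, beside 0.13% of rows. In 6 of 6 title numbers, SDHC and UQCR10 were lower in hypoxia (2.94% of members, beside 1.74% of rows) and NDUFS3 and NDUFB8 higher (2.94%, beside 1.45% of rows).

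**Figure D3:**
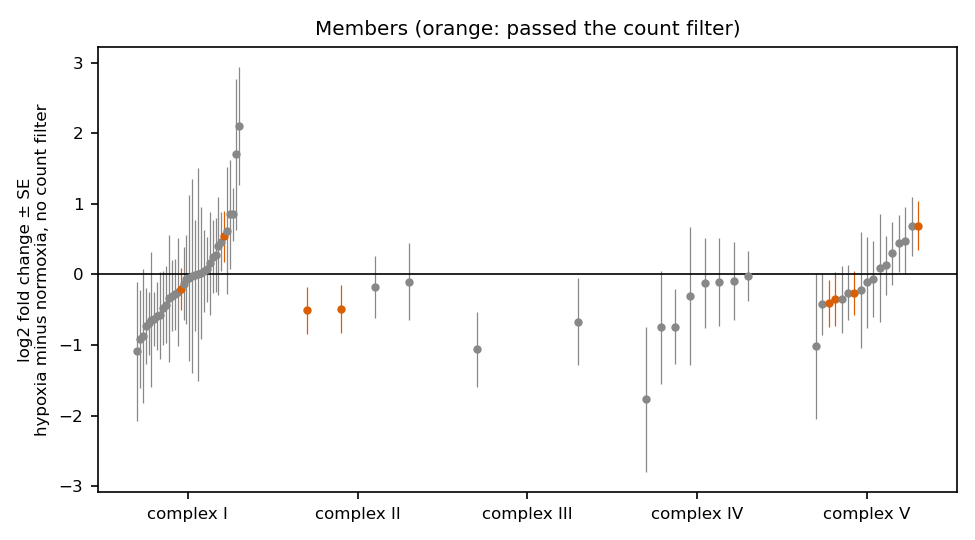
Log2 fold change, hypoxia minus normoxia, with its SE as bars, for the members reported, in the fit without a count filter, sorted within each complex. The 4 SDH, 2 UQCR and 8 COX genes all lie below 0, some by less than their SE (COX6B at -0.02 ± 0.356), and complexes I and V have genes on both sides.

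Complex II, succinate dehydrogenase, links the citrate cycle to the respiratory chain. SDHA holds the flavin that oxidises succinate, SDHB the iron-sulfur clusters that carry the electrons on, and SDHC and SDHD anchor the enzyme in the inner membrane and form its ubiquinone site. Summed over the 4 genes, hypoxia libraries had 82.2 ± 26.1 CPM and normoxia libraries 107 ± 30.2 CPM (SD, n = 6 each). The sum was lower in hypoxia in each of the 6 title numbers. In hypoxia and normoxia it was 89.2 and 104 CPM for number 110, 73.7 and 88.4 for 16, 43.7 and 78.0 for 21, 124 and 161 for 33, 75.1 and 91.2 for 49, and 87.7 and 121 for 4. The groups overlapped, since number 33 was high and number 21 low in both. The mean log2 ratio within numbers was -0.41 ± 0.227 (SD, n = 6), with single ratios from -0.84 to -0.22. It rests on 18 to 88 reads per library, and read counting alone would give single ratios an SD of 0.332. A sum over members has no test here.

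SDHC was lower in hypoxia in all 6 numbers. It had 11.5, 20.6 and 34.1 CPM as the lowest, median and highest value in hypoxia, and 20.5, 29.2 and 52.0 CPM in normoxia. Number 49 showed the widest gap, with 6 reads in hypoxia and 19 in normoxia, and number 21 nearly none, with 19.4 and 20.5 CPM. With library size as the only scaling, number 21 turned and SDHC was lower in 5 of 6. Its log2 fold change was -0.51 ± 0.323 (SE) without and -0.54 ± 0.292 with the block, with edgeR adjusted p of 1 and 0.722.

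SDHB had 12.1, 32.8 and 38.3 CPM (lowest, median, highest) in hypoxia and 24.6, 34.5 and 70.9 CPM in normoxia. It was lower in hypoxia in numbers 110, 21 and 4 and higher in 16, 33 and 49, so the direction differed between numbers. The log2 fold change was -0.49 ± 0.338 (SE) without the block (edgeR adjusted p = 1). The normoxia library of number 110 stood apart at 70.9 CPM, and without it the value was -0.23.

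The other anchor and the flavoprotein went both ways. SDHA, which overlaps CCDC127, did not pass the filter, with 0 to 26 reads per library, and had 17.4 ± 6.85 CPM in hypoxia against 18.3 ± 14.0 CPM in normoxia (SD, n = 6 each), higher in 3 and lower in 3 numbers. SDHD had 14.7 ± 10.3 and 17.8 ± 20.3 CPM, and the normoxia library of number 33 was the highest, at 57.0 CPM. SDHD was higher in hypoxia in 4 numbers and lower in 2. The sum of complex II was thus below its normoxia partner in every number, while among its 4 genes SDHC alone was.

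**Figure D4:**
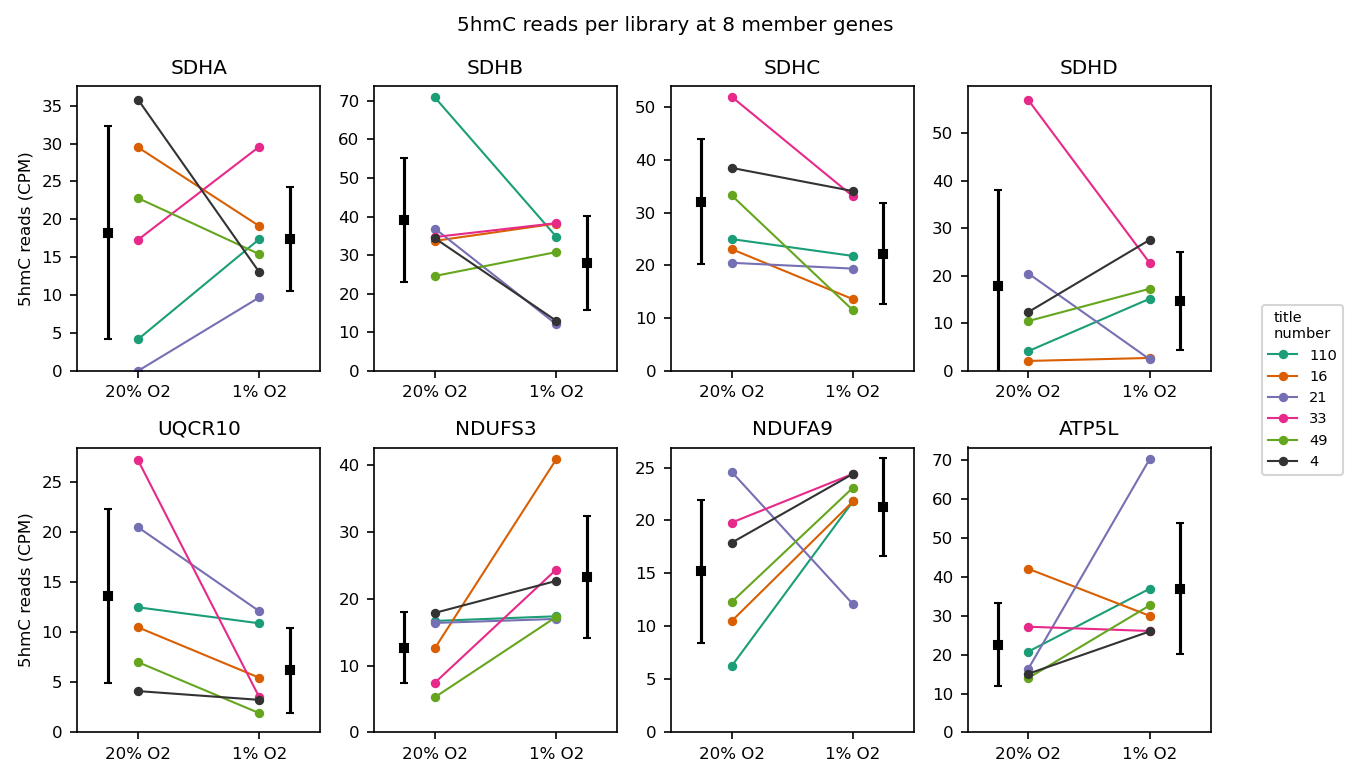
5hmC reads (CPM) per library at 8 member genes; lines join the normoxia (20% O2) and hypoxia (1% O2) libraries of a title number, and black squares with bars give the group mean and SD (the normoxia bar of SDHD is cut at 0). In hypoxia SDHC is lower and NDUFS3 higher on all 6 lines, NDUFA9 is higher on 5, and UQCR10 is lower on all 6.

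Complex III, which passes electrons from ubiquinol to cytochrome c, was represented by UQCR10 and UQCRB, 2 of its small accessory subunits. UQCR10 had 1.92, 4.47 and 12.1 CPM (lowest, median, highest) in hypoxia and 4.13, 11.5 and 27.2 CPM in normoxia, on 17 and 34 reads in all. It was lower in hypoxia in 6 of 6 numbers under each of the 4 scalings tried, and did not pass the count filter. UQCRB had 8 reads in hypoxia and 13 in normoxia, higher in 3 and lower in 3 numbers. The sum of both was 9.07 ± 4.31 CPM in hypoxia against 18.3 ± 10.8 CPM in normoxia (SD, n = 6 each), with a mean log2 ratio of -0.97 ± 0.949. With 3 to 15 reads per library, counting alone would give an SD of 0.919. Number 33, with 3 and 15 reads, had the most negative ratio, -2.83, and without it the mean was -0.60.

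Complex IV, cytochrome c oxidase, hands the electrons to oxygen and has subunits with isoforms for different tissues. Its 8 members had 262 reads in all, of which COX6B held 41.6%. The sum was 41.3 ± 6.68 CPM in hypoxia and 48.4 ± 9.39 CPM in normoxia (mean and SD over 6 libraries each), below normoxia in 5 of 6 numbers, with a mean log2 ratio of -0.22 ± 0.352. On 10 to 36 reads per library, counting alone would give an SD of 0.46. Number 21 went the other way with 0.38, and its normoxia library held 10 reads. Without number 110, which had the most negative ratio (-0.72), the mean was -0.12, without number 21 it was -0.34, and without COX6B it was -0.35. COX6B, a subunit on the intermembrane side, had 19.2 ± 4.08 CPM in hypoxia and 19.5 ± 7.58 in normoxia, higher in 3 and lower in 3 numbers.

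The isoform genes of complex IV were covered by few reads. COX6A1, the widely expressed form of subunit 6A, had 15 reads in hypoxia and 16 in normoxia. COX7A1, the heart and muscle form of subunit 7A, had 15 and 17, and its ubiquitous counterpart COX7A2 had 1 and 5. For COX7A2 the ratio of hypoxia to normoxia was 0.197, with an exact 95% interval of 0.00416 to 1.76 for counting error only. COX7C was lower in hypoxia in 5 of 6 numbers on 15 and 25 reads, and COX6C, COX8H and COX5B had 21, 14 and 9 reads in all. COX4I1, COX4I2, COX5A, COX6A2, COX6B2, COX7A2L and COX8A, and UQCRFS1, UQCRC1 and UQCRC2 of complex III, were not analysed here.

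**Figure D5:**
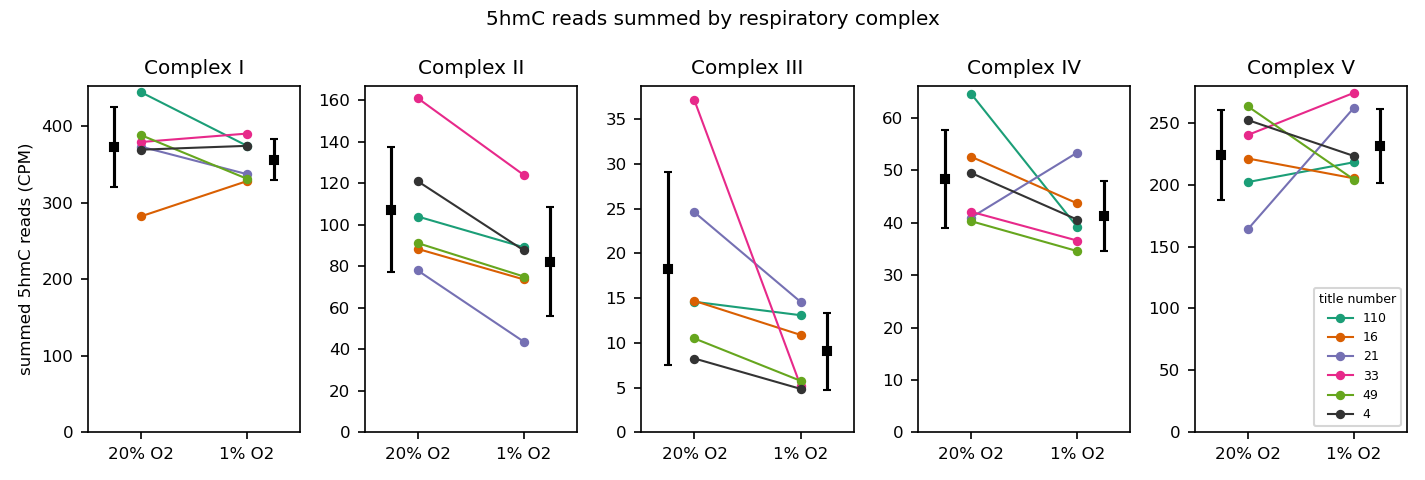
Summed 5hmC reads (CPM) of all members of each complex per library; lines join the normoxia (20% O2) and hypoxia (1% O2) libraries of a title number, and black squares with bars give the group mean and SD. Hypoxia is lower on all 6 lines for complexes II and III and on 5 of 6 for complex IV, and on 3 of 6 for complexes I and V.

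Complex I, NADH dehydrogenase, is the largest of the chain, with a peripheral arm that oxidises NADH and a membrane arm that pumps protons. Its 37 members summed to 356 ± 26.9 CPM in hypoxia and 372 ± 52.1 CPM in normoxia (SD, n = 6 each), on 91 to 268 reads per library. The mean log2 ratio was -0.06 ± 0.181, with 3 numbers lower and 3 higher, and counting alone would give an SD of 0.160. Within the complex, 6 of 13 NDUFA, 3 of 11 NDUFB, 1 of 2 NDUFC, 5 of 8 NDUFS and 0 of 3 NDUFV genes had a positive log2 fold change in the fit without a filter. Summed by these name groups, the mean log2 ratio was 0.03 for NDUFA, -0.1 for NDUFB, -0.37 for NDUFC, 0.1 for NDUFS and -0.65 for NDUFV. The 3 NDUFV genes, the group with the largest ratio, summed to 15.9 ± 4.40 CPM in hypoxia and 25.1 ± 6.34 in normoxia, lower in 5 of 6 numbers. NDUFV2 had the most of these reads (77 in all), and NDUFV1 had 0 reads in 8 libraries. No sum was tested.

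NDUFB10, an accessory subunit of the membrane arm, had 62.2 ± 26.3 CPM in hypoxia and 71.3 ± 28.1 CPM in normoxia (mean and SD over 6 libraries each), below normoxia in 3 and higher in 3 numbers, with a log2 fold change of -0.21 ± 0.311 (SE). Single libraries moved this value, which was between -0.39 without the hypoxia library of number 4 and -0.08 without the normoxia library of number 110, and -0.03 without number 110 in the fit with the block. In the RefSeq table it overlaps RPS2 and RPL3L, and reads from overlapping genes cannot be told apart in DNA. NDUFA9, an accessory subunit near the ubiquinone site, had 12.1, 22.5 and 24.4 CPM (lowest, median, highest) in hypoxia and 6.25, 15.1 and 24.6 CPM in normoxia. It was higher in hypoxia in 5 of 6 numbers and lower in number 21, on 3 to 15 reads per library. Its log2 fold change was 0.55 ± 0.327 without and 0.57 ± 0.344 with the block (edgeR adjusted p of 1 and 0.790).

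NDUFS3, a core subunit of the peripheral arm, did not pass the count filter and was higher in hypoxia in 6 of 6 numbers. Its reads in hypoxia and normoxia were 8 and 8 for number 110, 15 and 6 for 16, 7 and 4 for 21, 14 and 3 for 33, 9 and 3 for 49, and 14 and 13 for 4. In CPM this was 23.3 ± 9.20 against 12.7 ± 5.28 (SD, n = 6 each), and the groups overlapped. Numbers 110 and 21 differed by under 1 CPM, and scaled to all reads of the table NDUFS3 was higher in 5 of 6. In the fit without a filter the log2 fold change was 0.85 ± 0.380 (SE), with edgeR adjusted p = 1. NDUFS3 overlaps KBTBD4 in the RefSeq table.

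NDUFB8, an accessory subunit of the membrane arm, had 11 reads in hypoxia, with 1 to 3 in every library, and 2 reads in normoxia, both in number 4. The ratio was 5.41, with an exact 95% interval of 1.18 to 50.2 that covers counting error only. NDUFB8 was named for its direction in these same reads, which the interval does not take into account. A library with 0 reads does not exclude a level worth up to 3 reads (4.13 to 12.3 CPM across all libraries), so absence in normoxia is not shown.

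Among the other core subunits, NDUFS1 and NDUFV2 had lower means in hypoxia. NDUFS1, an iron-sulfur subunit, had 14.0 ± 5.13 CPM in hypoxia against 21.4 ± 11.1 CPM in normoxia (SD, n = 6 each), and NDUFV2 10.0 ± 6.40 and 17.2 ± 8.01, each lower in hypoxia in 4 of 6 numbers. NDUFS7, NDUFS8 and NDUFV1 had 15, 6 and 12 reads in all. NDUFA4, counted here by its symbol, is now placed in complex IV, and it had 7 reads in hypoxia and 13 in normoxia. Its symbol stands for 2 entries of the RefSeq table, of which 1 is a pseudogene.

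Complex V, the ATP synthase, has a catalytic F1 head and a membrane-bound Fo part with a ring of c subunits. Its 17 members summed to 231 ± 29.8 CPM in hypoxia and 224 ± 36.4 CPM in normoxia (SD, n = 6 each), with a mean log2 ratio of 0.05 ± 0.365. Hypoxia was higher in numbers 110, 21 and 33 and lower in 16, 49 and 4. The sample labels give no lane. The names of the deposited counts carry 8 for numbers 49 and 4 and 7 for the others, read here as the sequencing lane. The mean ratio was 0.21 within lane 7 and -0.27 within lane 8. In number 21, whose normoxia library held 40 reads, the ratio was 0.68, and without that number the mean was -0.07. Read counting alone would give an SD of 0.207.

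In the F1 head, ATP5A1, the alpha subunit, had 10.9, 19.0 and 26.7 CPM (lowest, median, highest) in hypoxia and 14.7, 24.2 and 34.7 in normoxia. It was lower in hypoxia in 4 of 6 numbers, with a log2 fold change of -0.41 ± 0.308 (SE; edgeR adjusted p = 1). The catalytic beta subunit gene ATP5B had 18.0 ± 8.31 and 21.6 ± 11.9 CPM, also lower in 4 of 6, and did not pass the filter. ATP5D, the delta subunit, was higher in hypoxia in 5 of 6 numbers, with 47 reads against 35. The 5 head genes summed to 72.4 ± 15.0 CPM in hypoxia and 74.9 ± 19.7 CPM in normoxia.

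ATP5L, subunit g of the membrane part, had the highest log2 fold change among the tested members. Its levels in hypoxia and normoxia were 37.0 and 20.8 CPM for number 110, 30.0 and 42.1 for 16, 70.4 and 16.4 for 21, 26.1 and 27.2 for 33, 32.7 and 14.0 for 49, and 26.0 and 15.1 for 4. Hypoxia was higher in 4 numbers and lower in 2, and number 21 showed the widest gap, with 29 reads against 4. The log2 fold change was 0.69 ± 0.339 (SE) without and 0.66 ± 0.309 with the block, with edgeR adjusted p of 1 and 0.691, and it was 0.43 without the hypoxia library of number 21. ATP5L overlaps a long noncoding RNA gene in the RefSeq table.

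The 3 genes for subunit c, which encode the same mature protein, had no common direction. ATP5G2 had 2.73, 21.5 and 33.1 CPM (lowest, median, highest) in hypoxia and 8.21, 29.0 and 37.1 in normoxia, with a log2 fold change of -0.35 ± 0.375 (SE). Without the hypoxia library of number 16, which held 1 read, it was -0.16, and without that of number 33 it was -0.54. ATP5G1 had 43 reads in hypoxia and 40 in normoxia, and ATP5G3 had 10 and 9. Of the symbols in ATP5 form, ATP5S and ATP5SL are not ATP synthase subunits in the strict sense, ATP5SL being known now as the complex I assembly factor DMAC2. ATP5SL had 28.7 ± 6.83 CPM in hypoxia against 33.0 ± 12.9 CPM in normoxia (SD, n = 6 each) and ATP5S 13.4 ± 4.37 and 8.63 ± 2.64, higher in 5 of 6 numbers. ATP5SL overlaps LIPE, CEACAM1, ERICH4 and 3 further entries of the RefSeq table. Without ATP5S and ATP5SL, the mean log2 ratio of complex V was 0.06. The remaining ATP5 genes had 7 to 85 reads in all. They were ATP5C1 and ATP5E, counted above among the head genes, and ATP5F1, ATP5H, ATP5I, ATP5J, ATP5J2 and ATP5O.

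Summed over all 68 members, hypoxia libraries had 719 ± 64.4 CPM and normoxia libraries 770 ± 81.5 CPM (SD, n = 6 each), on 166 to 581 reads. The mean log2 ratio was -0.10 ± 0.127, from -0.29 to 0.06, with 4 numbers lower and 2 higher. With library size as the only scaling 3 were lower and 3 higher.

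Genes around the chain, from lists chosen for this comparison, showed no call either. Of 4 listed subunit genes that lie outside the symbol rule and have a row, 2 were tested, 1 higher and 1 lower (0 called). Without the count filter 2 of the 4 were higher and 2 lower. CYCS, the cytochrome c gene, had 3 reads in hypoxia and 8 in normoxia, higher in 0 and lower in 5 numbers. NDUFA4L2, a relative of NDUFA4 known as a target of the hypoxia-inducible factors that lowers complex I activity, is on the same list. It had 88.9, 116 and 165 CPM (lowest, median, highest) in hypoxia and 52.1, 73.2 and 103 CPM in normoxia. It was higher in 6 of 6 numbers, as were 1.45% of all rows with a read, and the groups overlapped. Scaled to all reads of the table it was higher in 5 of 6. Its log2 fold change was 0.63 ± 0.233 (SE) without and 0.64 ± 0.198 with the block, with edgeR adjusted p of 1 and 0.444.

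Of 35 assembly factor genes with a row, 9 were tested, 5 higher and 4 lower with a median log2 fold change of 0.061 and 0 called. COX10, an enzyme on the route to the haem A of complex IV, had 20.0 ± 7.69 CPM in hypoxia and 32.6 ± 14.3 CPM in normoxia (mean and SD over 6 libraries each). It was below normoxia in 5 of 6 numbers, with a log2 fold change of -0.74 ± 0.350 (SE). Of 13 tested genes of the citrate cycle and pyruvate dehydrogenase, 5 were higher and 8 lower, with a median of -0.229 and 0 called. Of 11 tested regulators of mitochondrial genes, 5 were higher and 6 lower (median -0.0662, 0 called). Of 3 tested oxygen-responsive regulators of respiration, a list that includes NDUFA4L2, 2 were higher and 1 lower (median 0.039, 0 called). The lower one was ISCU, at -0.59 ± 0.326 (SE) and below normoxia in 5 of 6 numbers. Without the count filter 5 of the 9 genes of this list were higher and 4 lower. Of the 14 tested cytosolic ribosomal protein genes 4 were higher and 10 lower (median -0.235), and of the 18 mitochondrial ones 6 were higher and 12 lower (median -0.223), so a median below that of all genes was not limited to the respiratory chain.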

How the data were processed

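DNA fragments enriched for 5hmC were sequenced in 12 libraries, 6 from hypoxia and 6 from normoxia. The input library belongs to neither group and is not used here. The authors deposited 1 table of raw read counts per gene for each library. Bowtie2, Picard, HTSeq, MACS2 and edgeR are named in the submitters' processing notes, without versions. The genome build, annotation, counted feature and strand setting used are not given in the sources used for this text, so the deposited peak lists were not used and no coordinates are printed. Names and overlaps come from RefSeq's Sscrofa11.1 gene table, in which all 68 members matched by symbol and 22 overlapped another gene. Rows that name no gene (88.0 to 93.0% of reads outside features, 4.12 to 10.3% of low quality) stayed out of library sizes and tests.

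The quasi-likelihood test of edgeR 4.0.16 (R 4.3.3) was run on counts scaled by TMM after filterByExpr (10 reads at least, total 15), over all 11868 genes left, with Benjamini-Hochberg adjustment at 0.05. The step was tested on simulated data. The test gives no SE, so the SE of a log2 fold change is its size divided by the square root of the test's F value. Levels in the text are TMM-scaled CPM. Sums by complex are described by the mean and SD of the 6 log2 ratios within title numbers, with no test. Libraries of the same title number deviated together from their group means (correlations of 0.13 to 0.461 over genes), so the numbers were taken as pairs and a fit with the number as a block stands beside the main fit. The meaning of a number is not in the labels, and p-values measure only the spread between these libraries. Intervals cover counting error only.

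The counts and sums include 1 member gene whose own values are not reported here. Members and gene lists were chosen with earlier results of these data known. Genes were named where called, where among the 5 smallest p-values in a direction, as the best covered or lowest p of a complex, as SDH genes, core subunits or isoforms, or where all 6 numbers had the same direction. Of the symbols so listed, 17 had a row and 10 were not analysed here. ATP5D, ATP5S, COX7C, COX6C, COX8H, UQCRB, NDUFA4 and ISCU were named after their values were seen. No naming rule singled out COX10, CYCS, NDUFA4L2 or, among the markers, ACTA2, ADIPOQ and CDH1. Alternatives were other scalings, filters, DESeq2 1.42.0, the lane, and leaving out each library or number.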

Additional observations from a re-analysis of the deposited data

Results flagged for a closer look

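In 3 of 32 sets of 6 libraries tested, 1 library lay far from the others, where chance flags about 1 in 20 groups. For ATP5L the hypoxia library of number 21 had 70.4 CPM, with the nearest other hypoxia library at 37.0 CPM. For NDUFA9 the same library had 12.1 CPM, with the nearest at 21.8 CPM. For SDHB the normoxia library of number 110 had 70.9 CPM, with the nearest at 36.9 CPM.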

How the results depend on the processing

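No member was called under any of the 27 alternatives to the main test, and with the replicate block the count called was 0 and the median log2 fold change of tested members -0.24. That median ran from -0.47 to -0.09. The number of members with a positive log2 fold change, 2 in the main test, was 22 without the count filter and 23 by DESeq2's Wald test, which both cover more members, 4 with lane 7 only, and 2 to 3 when 1 library or number was left out. In lane 7, ATP5G2 was 0.02 and ATP5SL 0.04. The cause of these changes was not tested. The share of members that pass was 33.8% with a mean of at least 5 reads per library, where 61.8% of all rows pass, against 13.2%. Under the alternatives run, the mean log2 ratio of the sums ran from -0.11 to -0.01 for complex I and -0.52 to -0.28 for complex II. For complex III it ran from -1.13 to -0.60, for complex IV from -0.35 to -0.12 and for complex V from -0.27 to 0.21. These shifts were not tested. Of the 68 members, 59 did not reach the count filter, and their fold changes come only from the fit without it.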
